A study of Rattus norvegicus with 22 samples.

Results

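The 38 genes described here are a chosen set of cell cycle and proliferation genes, taken by symbol from the count table of a study of traumatic brain injury (TBI) in the rat hippocampus. The table lists 17172 genes, and 37 of the 38 are among them. Bub1b, a mitotic checkpoint kinase, is not listed in it under that symbol. The genes were grouped by the part of the cycle they serve: 9 genes of G1 phase and entry into the cycle, 2 inhibitors of cyclin-dependent kinases (CDKs), 10 genes of S phase, and 17 genes of G2 and mitosis. RNA was sequenced from the ipsilateral (right) hippocampus of 14 adult male Sprague-Dawley rats. Of these, 8 rats had a moderate lateral fluid percussion injury, a brief pulse of fluid pressure on the exposed dura, and 6 sham rats went through surgery and anesthesia but got no pulse. Tissue came 1 day (2 sham, 4 TBI) or 14 days (4 sham, 4 TBI) later, so each TBI group was compared with the sham group of its own day. All 14 rats had the craniectomy, and each sample is 1 rat. The RNA is from whole tissue, so more cells of a type and more RNA per cell cannot be told apart.

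A dividing cell passes through a fixed order of gene programs. D-type cyclins with CDK4 or CDK6, then cyclin E with CDK2, phosphorylate the retinoblastoma protein and free E2F factors, which switch on the genes that copy DNA. Later, the MuvB complex with B-MYB and FOXM1 acts through a short promoter element called the cell cycle genes homology region (CHR), often beside CCAAT boxes bound by NF-Y, and switches on the genes of G2 and mitosis. The adult hippocampus holds few dividing cells, among them neural progenitors of the dentate gyrus and oligodendrocyte precursors, while microglia, astrocytes, vessel cells and blood-derived cells can divide after an injury.

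The promoter windows of 27 of the 38 genes were found in the RefSeq table of the GRCr8 build, each 300 bases long, from 250 bases before the start of the gene to 50 bases after it. The counts were made on an older build, rn5, so the windows serve only to show sequence. The following 3 motifs were searched on both strands: the CHR as TTTGAA or TTTAAA, the CCAAT box as CCAAT, and an E2F site as TTTCCCGC, TTTGGCGC, TTTCGCGC or TTTGCCGC. A palindrome was counted once, and overlapping matches on opposite strands were counted each. All 13 windows of G2 and mitosis genes (that of Bub1b included) held a CHR match, against 28.25% of all 33469 windows and 18.7% of the 9194 windows of tested genes with a single entry. Among the 8 S phase windows 1 held a CHR match (Mcm2), as did 1 of 4 of the G1 genes (Ccne1) and 1 of 2 of the inhibitors (Cdkn1b). The E2F words were found in 6 of 8 S phase windows and in 1 of 13 G2 and mitosis windows (Cdk1), against 2.14% of all windows and 3.71% of those of tested genes. CCAAT was common everywhere, in 10 of 13 mitotic, 6 of 8 S phase, 2 of 4 G1 and 1 of 2 inhibitor windows, and in 37.5% of all windows. These are letter matches, not measured binding.

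Promoter windows of 6 genes are shown, each chosen to set genes that rose at day 1 beside a gene of the same class that did not pass the test, with matches to the 3 motifs in capitals on either strand (so ATTGG is a CCAAT box and TTCAAA a CHR read from the other strand). Mcm5 and Mcm6, subunits of the replicative helicase with large changes at day 1, are shown beside Tyms, the thymidylate synthase, which carries an E2F word too but did not pass the test. Cdk1, the mitotic kinase, and Top2a, the topoisomerase that untangles chromosomes, are shown beside Ccnb1, the cyclin B1 partner of CDK1, which also has CHR and CCAAT matches and did not pass the test. The windows lie at chr19:13488563-13488862 (Mcm5, plus strand), chr13:42404303-42404602 (Mcm6, minus strand), chr9:120776034-120776333 (Tyms, minus strand), chr20:19265043-19265342 (Cdk1, plus strand), chr10:84473044-84473343 (Top2a, minus strand) and chr2:33655176-33655475 (Ccnb1, minus strand), and each is written 5′ to 3′ on the strand of its gene.
Mcm5: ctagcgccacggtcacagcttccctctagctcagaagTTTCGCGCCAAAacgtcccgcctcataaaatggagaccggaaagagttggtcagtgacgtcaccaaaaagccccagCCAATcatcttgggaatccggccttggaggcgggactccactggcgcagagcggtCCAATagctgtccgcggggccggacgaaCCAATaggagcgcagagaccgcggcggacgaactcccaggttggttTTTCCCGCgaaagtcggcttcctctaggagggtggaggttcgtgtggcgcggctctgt
Mcm6: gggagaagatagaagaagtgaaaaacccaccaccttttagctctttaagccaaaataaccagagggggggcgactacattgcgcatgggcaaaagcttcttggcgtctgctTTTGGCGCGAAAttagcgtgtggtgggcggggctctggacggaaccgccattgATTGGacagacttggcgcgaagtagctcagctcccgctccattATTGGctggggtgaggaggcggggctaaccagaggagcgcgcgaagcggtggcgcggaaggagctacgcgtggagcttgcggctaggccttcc
Tyms: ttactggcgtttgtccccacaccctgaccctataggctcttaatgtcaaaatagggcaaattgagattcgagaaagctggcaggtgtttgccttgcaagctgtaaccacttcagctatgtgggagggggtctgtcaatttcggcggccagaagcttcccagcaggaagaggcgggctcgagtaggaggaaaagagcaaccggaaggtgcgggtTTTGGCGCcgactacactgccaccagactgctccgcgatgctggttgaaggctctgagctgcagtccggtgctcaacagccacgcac
Cdk1: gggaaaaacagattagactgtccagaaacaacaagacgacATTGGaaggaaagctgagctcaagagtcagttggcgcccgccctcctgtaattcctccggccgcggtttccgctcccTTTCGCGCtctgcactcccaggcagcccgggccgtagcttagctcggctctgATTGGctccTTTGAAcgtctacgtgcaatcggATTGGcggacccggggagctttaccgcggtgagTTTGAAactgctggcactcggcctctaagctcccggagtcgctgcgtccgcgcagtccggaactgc
Top2a: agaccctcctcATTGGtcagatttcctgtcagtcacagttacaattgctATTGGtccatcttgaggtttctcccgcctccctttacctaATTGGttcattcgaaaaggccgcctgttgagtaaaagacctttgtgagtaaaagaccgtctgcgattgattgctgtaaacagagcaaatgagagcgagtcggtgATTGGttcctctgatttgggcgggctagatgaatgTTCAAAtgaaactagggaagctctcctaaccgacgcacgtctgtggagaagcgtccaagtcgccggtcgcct
Ccnb1: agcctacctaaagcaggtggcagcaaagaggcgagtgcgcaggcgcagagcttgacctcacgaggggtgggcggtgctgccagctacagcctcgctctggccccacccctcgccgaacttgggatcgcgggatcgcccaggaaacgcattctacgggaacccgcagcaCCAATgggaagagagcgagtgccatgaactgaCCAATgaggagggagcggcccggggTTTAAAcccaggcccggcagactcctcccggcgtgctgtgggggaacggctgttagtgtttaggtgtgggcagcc

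In the Mcm5 window the first 2 E2F words overlap head to head, their first bases 213 and 209 bases before the start, and another stands 8 bases before it. Mcm6 has an overlapping pair at 139 and 135 bases before the start, and Tyms has 1 word at 37. The CHR matches nearest the start lie 16 bases before it in Cdk1, 22 in Top2a and 25 in Ccnb1. So the E2F words were mostly in S phase windows and the CHR matches mostly in mitotic windows, as the plot of motif positions shows. Pcna and Rrm1, S phase genes that rose at day 1, held no E2F word, while Tyms and Ccnb1 did not pass the test and held matches of the kind usual for their class.

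**Figure D1:**
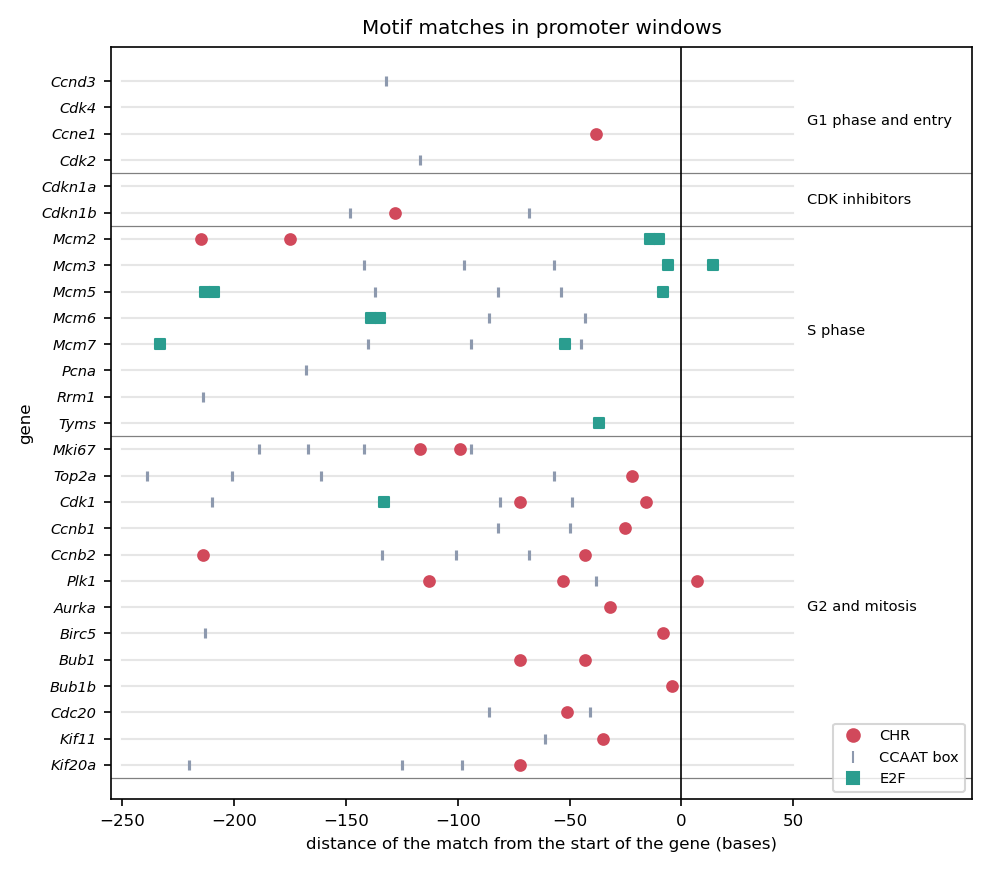
Positions of CHR (circles), CCAAT box (bars) and E2F (squares) matches in the promoter windows of 27 cell cycle genes, by distance in bases from the start of the gene (vertical line). Each of the 13 G2 and mitosis windows holds a circle, and 6 of 8 S phase windows hold a square.

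Total counts per sample ran from 15065540 to 23743703. Transcripts of the choroid plexus, a ventricular tissue that borders the hippocampus, were high in 3 samples: the 10 listed markers summed to 8584 CPM (counts scaled to the size of each library) in sham day 1 replicate 1, 1521 in TBI day 14 replicate 2 and 7530 in TBI day 14 replicate 3, against 6.09 to 20.4 in the other samples, with Otx2 at 0 in all 14. Where leaving out these 3 samples ended the call of a gene of the class, that is given beside it. Markers of neurons, the main cells of this tissue, summed to between 2970 and 10140 CPM in every sample. The RefSeq annotation places 15 of the 38 genes over another gene, and for 8 of them (Cdk4, Cdk2, Mcm7, Rrm2, Plk1, Aurka, Kif11 and Kif20a) that neighbour is in the count table too. The strand setting of the counting is not given in the sources used here, so reads of these 8 are less certain.

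At day 1 after TBI, genes that copy DNA and genes that drive mitosis were higher than in sham, by up to 20.7-fold, while G1 genes were split and the CDK inhibitors did not pass the test. Of 37 genes tested, 25 rose and 0 fell at an adjusted p-value under 0.05 by edgeR's quasi-likelihood test, in which 11.2% of all 12875 tested genes rose and 7.93% fell. Without adjustment, 29 genes had a p-value under 0.05 by that test, beside 4429 of all 12875 tested genes, and 1 of the 29 (Cdkn1b) was lower. By class, 4 of 9 G1 genes, 0 of 2 inhibitors, 9 of 10 S phase genes and 12 of 16 G2 and mitosis genes rose. The median log2 fold change was 1.18 over the 37 genes (0.589 in G1, 0.376 for the inhibitors, 1.58 in S phase and 1.96 in G2 and mitosis), beside -0.015 over all genes. Every gene passed the filter on low counts, but Ccnb2 and Rrm2 did so through TBI samples, since 0 and 1 of the 6 sham samples reached its level.

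All 4 TBI day 1 samples lay above both sham day 1 samples for 23 of the 37 genes, which held for 16.7% of all tested genes, and above all 10 other samples for 19, which held for 8.26%. The S phase genes did so 10 of 10 times, the G2 and mitosis genes 6 of 16, the G1 genes 3 of 9 and the inhibitors 0 of 2. With 2 sham rats at day 1, the number of genes called turned on the model. In a fit of only the 6 day 1 samples, 10 rose: Ccnd1, Mcm2, Mcm3, Mcm5, Mcm6, Pcna, Top2a, Cdk1, Aurkb and Bub1. The share of all genes called in that fit, or without sham day 1 replicate 2, is not given here. A drop in calls over all genes therefore cannot be told apart from a drop in these genes. Without sham day 1 replicate 2, 13 rose, and without the 3 samples with choroid plexus transcripts 17 rose, all from among the 25, where 10.8% of all tested genes were higher and 8.48% lower. Mcm2, Mcm3, Mcm5, Mcm6, Pcna and Bub1 rose under each of the 25 alternatives tried, and Cdk1 under the 24 in which it was tested (with at least 10 counts required in every sample it was not).

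**Figure D2:**
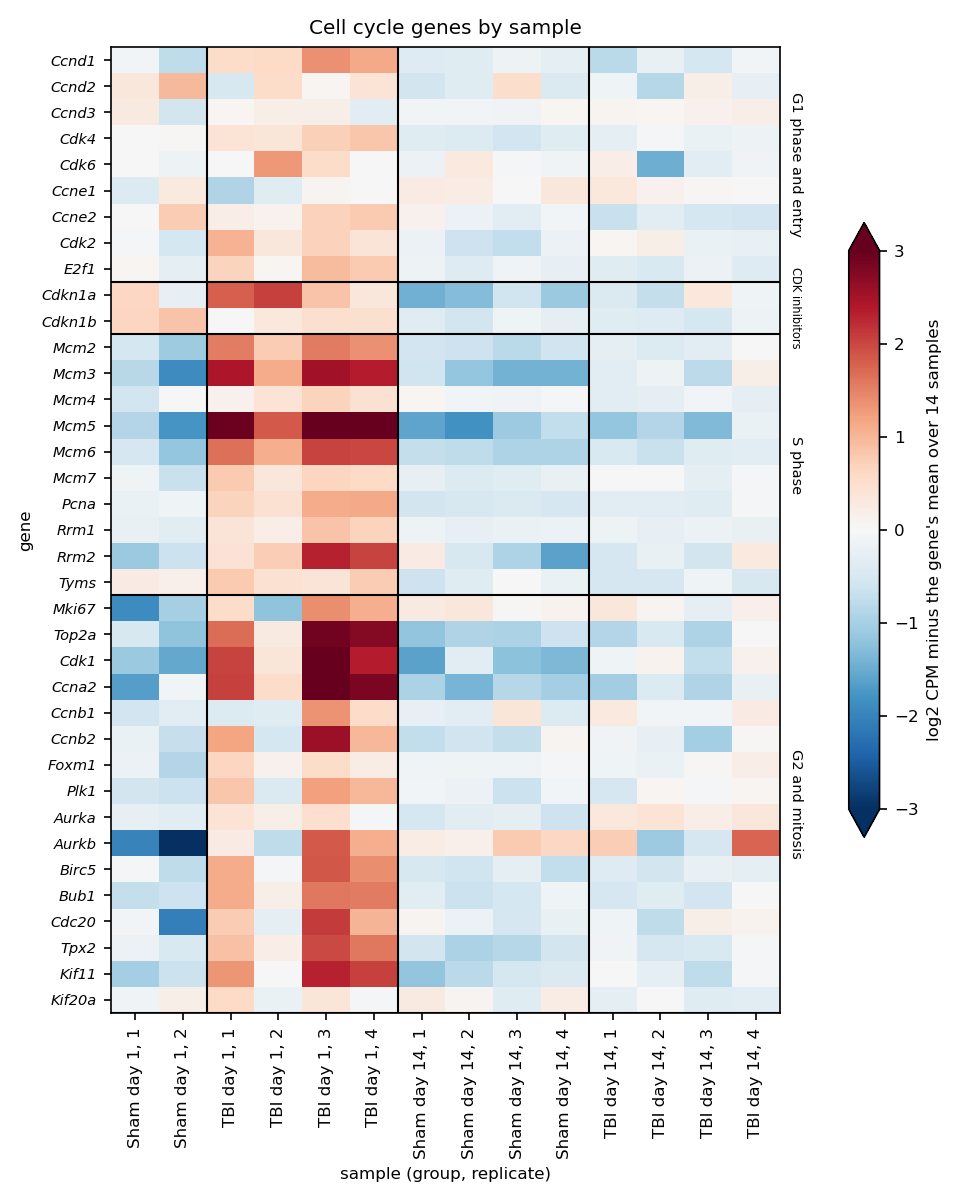
Heat map of 37 cell cycle genes (rows, by class) in 14 samples (columns, by group and replicate), coloured by log2 CPM minus the mean of the gene over all samples, with colours saturating at 3. The 4 TBI day 1 columns are red over most S phase and mitotic genes, TBI day 1 replicate 2 is the palest of them in the mitotic block, and the 8 day 14 columns are pale in most rows.

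Of the G1 genes, Ccnd1, the cyclin D1 that growth signals induce, changed by the largest factor. Ccnd1 stood at 49.8 and 31.0 CPM in the sham day 1 samples and at 78.1, 80.7, 136 and 116 CPM in the TBI day 1 samples. At day 14 it read 40.6, 41.3, 47.4 and 43.8 CPM in sham and 30.2, 45.4, 37.0 and 49.8 CPM in TBI. The TBI day 1 samples were thus above every other sample, and the other 3 groups overlapped. At day 1 TBI exceeded sham by 1.35 ± 0.27 (SE) on the log2 scale, 2.55-fold, with an adjusted p of 0.00298 by edgeR, and 0.935 at day 14. Without sham day 1 replicate 2 the adjusted p at day 1 was 0.0661.

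Cdk4, the kinase that cyclin D activates, read 81.0 and 83.1 CPM in sham and 109, 105, 134 and 146 CPM in TBI at day 1. Its day 14 values were 63.1, 61.6, 54.9 and 63.5 CPM in sham and 65.8, 79.3, 70.3 and 73.3 CPM in TBI. Both TBI groups lay above their sham group without overlap, and the sham day 1 samples themselves lay above all 8 day 14 samples. The log2 fold change was 0.59 ± 0.15 (SE) at day 1 (adjusted p = 0.0129, edgeR) and 0.25 ± 0.12 (SE) at day 14 (adjusted p = 0.39, edgeR). The day 1 call was lost without either sham sample of that day, and without the 3 samples with choroid plexus transcripts. Cdk2, the kinase of the G1 to S transition, read 9.75 and 6.87 CPM in sham and 20.6, 12.5, 16.1 and 13.0 CPM in TBI at day 1. At day 14 it read 8.72, 6.43, 5.90 and 8.82 CPM in sham and 10.3, 11.3, 8.70 and 8.55 CPM in TBI. Its TBI day 1 samples were the 4 highest of all, a difference of 0.91 ± 0.26 (SE) on the log2 scale (adjusted p = 0.0237, edgeR), which was lost without sham day 1 replicate 2 (adjusted p = 0.253).

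E2f1, the factor that activates S phase genes, read 7.76 and 6.04 CPM in sham and 11.8, 7.71, 14.4 and 12.8 CPM in TBI at day 1. At day 14 the samples read 6.68, 5.65, 6.82 and 6.26 CPM in sham and 5.71, 5.39, 6.56 and 5.60 CPM in TBI. Replicate 2 of TBI day 1 lay just under the higher sham sample, and the other TBI samples of that day lay above all others. The change of 0.76 ± 0.24 (SE) on the log2 scale (adjusted p = 0.0352, edgeR) was lost when sham day 1 replicate 2, TBI day 1 replicate 3 or TBI day 1 replicate 4 was left out, and without the 3 samples with choroid plexus transcripts (adjusted p = 0.0657). The remaining G1 genes did not pass the test at either day. Cyclins D2 and D3 (Ccnd2, Ccnd3), the alternative D-type cyclins, had day 1 log2 fold changes of -0.50 and 0.11. Cyclins E1 and E2 (Ccne1, Ccne2), which activate CDK2, had -0.22 and 0.04, and Cdk6, the other kinase of the D-type cyclins, had 0.67 ± 0.47 (SE). Cyclin E mRNA levels in TBI day 1 lay between 7.37 and 14.7 CPM for Ccne1 and between 18.1 and 29.3 CPM for Ccne2, overlapping the sham values of that day.

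The 2 inhibitors did not pass the test at day 1, with Cdkn1a higher and Cdkn1b lower in TBI than in sham. Cdkn1a encodes p21, which blocks CDK2 and binds PCNA. Its level was 23.3 and 12.7 CPM in sham and 53, 63.6, 27.6 and 19.3 CPM in TBI at day 1. At day 14 the level was 5.57, 6.13, 10.0 and 6.97 CPM in sham and 11.2, 9.20, 19.1 and 13.9 CPM in TBI. The groups overlapped on both days, with the highest values in TBI day 1 replicates 1 and 2. The log2 fold change was 1.18 ± 0.44 (SE) at day 1 (adjusted p = 0.074, edgeR) and 0.90 ± 0.36 (SE) at day 14 (adjusted p = 0.258, edgeR). DESeq2 called it at day 1 (adjusted p = 0.0289), as did edgeR without TBI day 1 replicate 4 (adjusted p = 0.0199).

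Cdkn1b encodes p27, which holds cells out of the cycle. It read 53.6 and 62.3 CPM in sham and 33.7, 42.3, 47.8 and 48.0 CPM in TBI at day 1, so every TBI sample was below both sham samples. At day 14 it read 26.6, 23.3, 31.1 and 27.9 CPM in sham and 26.7, 26.1, 23.6 and 30.7 CPM in TBI, all of them below every day 1 sample. The log2 fold change at day 1 was -0.43 ± 0.17 (SE) against sham day 1 (adjusted p = 0.0799, edgeR). Against sham day 14 the sign turned, to 0.66 (adjusted p = 0.00144, edgeR), and between the sham groups themselves Cdkn1b differed by 1.09 ± 0.16 (SE) (adjusted p = 0.00171, edgeR).

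The S phase genes moved together, with 9 of 10 called higher. The MCM2-7 helicase, loaded on origins in G1 and active in S phase, is built of 6 subunits, and all 6 genes rose: 20.7-fold for Mcm5, 11.4-fold for Mcm3, 5.90-fold for Mcm6, 4.37-fold for Mcm2, 1.96-fold for Mcm7 and 1.60-fold for Mcm4. Mcm5 read 1.46 and 0.738 CPM in sham and 22.1, 10.2, 26.5 and 31.6 CPM in TBI at day 1. Its day 14 values were 0.852, 0.721, 1.24 and 1.63 CPM in sham and 1.19, 1.47, 1.04 and 2.43 CPM in TBI. The lowest TBI day 1 sample, replicate 2, still lay far above the highest other sample. TBI exceeded sham by 4.37 ± 0.54 (SE) on the log2 scale, with an adjusted p of 8.34e-05 by edgeR.

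Mcm3 read 3.50 and 1.61 CPM in sham and 34.1, 13.8, 36.2 and 32.3 CPM in TBI at day 1, and at day 14 it read 4.13, 2.76, 2.27 and 2.29 CPM in sham and 5.04, 5.62, 3.58 and 7.07 CPM in TBI. Replicate 2 stood apart below the other TBI day 1 samples and above all remaining samples. TBI exceeded sham by 3.51 ± 0.47 (SE) on the log2 scale at day 1 (adjusted p = 0.000154, edgeR). Mcm6 read 6.57 and 4.15 CPM in sham and 29.9, 20.2, 38.4 and 37.9 CPM in TBI at day 1. At day 14 its levels were 5.70, 5.47, 4.92 and 4.90 CPM in sham and 6.77, 5.86, 7.20 and 7.55 CPM in TBI. The TBI samples lay above the sham samples on both days, by a log2 fold change of 2.56 ± 0.28 (SE) at day 1 (adjusted p = 3.03e-05, edgeR) and of 0.39 ± 0.21 (SE) at day 14, which did not pass the test (adjusted p = 0.496, edgeR).

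Mcm2, whose protein is a common label of cells licensed to replicate, read 8.24 and 5.62 CPM in sham and 34.6, 20.3, 35.2 and 31.0 CPM in TBI at day 1. The day 14 values were 8.00, 7.69, 6.76 and 7.89 CPM in sham and 9.88, 9.02, 9.49 and 12.1 CPM in TBI. As for Mcm6, no TBI sample overlapped the sham samples of its day. TBI exceeded sham by 2.13 ± 0.25 (SE) on the log2 scale at day 1 (adjusted p = 5.39e-05, edgeR) and 0.42 ± 0.19 (SE) at day 14 (adjusted p = 0.345, edgeR). Pcna, the sliding clamp of DNA polymerase that also serves in repair, read 34.7 and 36.7 CPM in sham and 63.5, 55.3, 86.1 and 88.2 CPM in TBI at day 1. At day 14 its levels were 27.2, 28.5, 29.5 and 28.4 CPM in sham and 31.4, 32.3, 30.9 and 39.2 CPM in TBI. The day 1 difference was 1.04 ± 0.19 (SE) on the log2 scale (adjusted p = 0.0016, edgeR), and here too the TBI samples of each day lay above the sham samples of that day.

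Ribonucleotide reductase makes the deoxynucleotides for DNA synthesis. Its regulatory subunit Rrm2, which cycles, read 0.269 and 0.415 CPM in sham and 0.986, 1.26, 3.90 and 3.22 CPM in TBI at day 1. The day 14 samples read 0.852, 0.481, 0.325 and 0.163 CPM in sham and 0.464, 0.586, 0.447 and 0.897 CPM in TBI. Replicates 3 and 4 of TBI day 1 were the high samples, and with sham levels this low the change of 2.74 ± 0.71 (SE) on the log2 scale (adjusted p = 0.0153, edgeR) was not called without either sham day 1 sample, nor without the 3 samples with choroid plexus transcripts (adjusted p = 0.102). The large subunit Rrm1, less tied to S phase, rose by 1.78-fold, from 25.1 and 27.6 CPM in sham to between 37.0 and 57.9 CPM in TBI (adjusted p = 0.00297, edgeR). Mcm7 and Mcm4 had log2 fold changes of 0.97 ± 0.17 (SE) and 0.68 ± 0.18 (SE) (adjusted p = 0.00163 and 0.0198, edgeR), and the Mcm4 call was lost without sham day 1 replicate 1 and without the 3 samples with choroid plexus transcripts. Tyms, which makes thymidylate, read 5.90 and 6.30 CPM in sham and 7.01 to 9.29 CPM in TBI at day 1, without overlap, but the difference of 0.43 ± 0.23 (SE) on the log2 scale did not pass the test (adjusted p = 0.198, edgeR).

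In the G2 and mitosis class, 12 of 16 genes rose, and replicate 2 of the injured rats was often close to sham. Cdk1, the kinase that starts mitosis, read 0.593 and 0.415 CPM in sham and 6.02, 1.83, 12.2 and 7.66 CPM in TBI at day 1. Day 14 levels were 0.393, 1.08, 0.541 and 0.490 CPM in sham and 1.26, 1.52, 0.795 and 1.53 CPM in TBI. All 4 TBI day 1 samples exceeded all others, with replicate 2 nearest to them. At day 1 TBI exceeded sham by 3.77 ± 0.69 (SE) on the log2 scale, 13.7-fold (adjusted p = 0.00185, edgeR), and at day 14 it was 1.02 ± 0.52 (SE) (adjusted p = 0.452, edgeR).

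Ccna2, the cyclin A2 of S phase and G2, read 0.485 and 1.66 CPM in sham and 7.63, 2.60, 16.0 and 13.0 CPM in TBI at day 1. At day 14 its levels were 0.852, 0.601, 0.919 and 0.817 CPM in sham and 0.796, 1.29, 0.894 and 1.48 CPM in TBI. The TBI day 1 samples were again the 4 highest, by 3.16 ± 0.65 (SE) on the log2 scale (adjusted p = 0.00404, edgeR), with an adjusted p of 0.0502 without the 3 samples with choroid plexus transcripts. Top2a read 3.29 and 1.94 CPM in sham and 15.0, 5.56, 35.0 and 31.9 CPM in TBI at day 1. The day 14 values were 1.97, 2.4, 2.33 and 2.94 CPM in sham and 2.45, 3.34, 2.38 and 4.65 CPM in TBI. Replicates 3 and 4 were high, replicate 1 intermediate and replicate 2 low but above the 10 samples of the other groups, and the log2 fold change was 3.07 ± 0.61 (SE) (adjusted p = 0.00321, edgeR). Without sham day 1 replicate 2 its adjusted p was 0.0601.

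Mki67, which encodes the proliferation antigen Ki-67, followed another pattern. It read 2.86 and 5.44 CPM in sham and 16.1, 4.67, 28.8 and 23.3 CPM in TBI at day 1, so that TBI replicate 2 fell between the sham samples. At day 14 it read 13.0, 13.9, 11.1 and 11.8 CPM in sham and 13.9, 11.6, 8.89 and 12 CPM in TBI, above both sham day 1 samples and above TBI day 1 replicate 2. The log2 fold change was 2.13 ± 0.52 (SE) against sham day 1 (adjusted p = 0.0115, edgeR) but 0.55 against sham day 14, which was not called. The day 1 call was also lost with limma-voom, against all 6 sham samples, without sham day 1 replicate 1 and without the 3 samples with choroid plexus transcripts.

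Aurkb, the Aurora B kinase of the chromosomal passenger complex, behaved likewise. It read 0.701 and 0.277 CPM in sham and 3.73, 1.79, 11.4 and 6.76 CPM in TBI at day 1. The day 14 samples read 3.67, 3.48, 5.41 and 4.84 CPM in sham and 5.31, 1.41, 2.19 and 10.7 CPM in TBI, a wide range. Against sham day 1 the log2 fold change was 3.61 ± 0.93 (SE) (adjusted p = 0.0147, edgeR), and against sham day 14 it was 0.44 and not called. The day 1 call was lost with limma-voom (adjusted p = 0.0822), against all 6 sham samples and without sham day 1 replicate 2. For Mki67 and Aurkb the day 1 call thus depended on which sham group was the baseline.

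Bub1, a kinase of the spindle checkpoint, read 1.94 and 2.08 CPM in sham and 7.16, 3.69, 9.99 and 9.76 CPM in TBI at day 1. By day 14 the levels were 2.56, 2.04, 2.22 and 2.94 CPM in sham and 2.25, 2.52, 2.14 and 3.22 CPM in TBI. Its TBI day 1 samples all lay above the other 10, a difference of 1.93 ± 0.38 (SE) on the log2 scale (adjusted p = 0.00279, edgeR). Kif11, a spindle motor, rose by 5.97-fold (adjusted p = 0.0053, edgeR), and Tpx2, which activates Aurora A on the spindle, by 3.14-fold (adjusted p = 0.00948, edgeR). Cdc20, an activator of the anaphase-promoting complex, rose by 3.98-fold, Birc5 (survivin, a partner of Aurora B) by 3.10-fold, the Polo-like kinase gene Plk1 by 2.62-fold and the transcription factor gene Foxm1 by 1.86-fold. Their adjusted p-values by edgeR were 0.0418, 0.0167, 0.0187 and 0.0138. Without sham day 1 replicate 2 the calls of Tpx2, Cdc20, Birc5, Plk1 and Foxm1 were lost, that of Plk1 also without sham day 1 replicate 1, and those of Kif11 and Plk1 without the 3 samples with choroid plexus transcripts. The Cdc20 call was lost under 13 of 24 alternatives, among them leaving out TBI day 1 replicate 3 or 7 of the 8 day 14 samples. With limma-voom Cdc20, Plk1 and Birc5 were not called (adjusted p = 0.0649, 0.0631 and 0.0503). TBI day 1 replicate 2 lay between the sham day 1 samples for Birc5 (2.72 CPM) and Cdc20 (1.66 CPM).

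The mitotic genes that did not pass the test at day 1 were Ccnb2, Ccnb1, Aurka and Kif20a. The B-type cyclins activate CDK1: Ccnb2 read 1.30, 0.325, 3.53 and 1.12 CPM in TBI and 0.431 and 0.277 CPM in sham, 2.13 ± 0.77 (SE) on the log2 scale (adjusted p = 0.0661, edgeR). Ccnb1 read 1.09, 1.14, 3.94 and 2.24 CPM in TBI and 0.970 and 1.15 CPM in sham, 0.98 ± 0.50 (SE) on the log2 scale (adjusted p = 0.179, edgeR). In both, replicate 3 was the high sample and replicate 2 lay between the sham values. DESeq2 called Ccnb2 (adjusted p = 0.0403), as did edgeR without TBI day 1 replicate 2 (adjusted p = 0.0171). Aurka, the Aurora A kinase of the centrosome, differed by 0.57 ± 0.19 (SE) on the log2 scale (adjusted p = 0.051, edgeR), called by DESeq2 (adjusted p = 0.0279) and by edgeR without TBI day 1 replicate 4 (adjusted p = 0.0195). Kif20a, a kinesin of the central spindle, had 0.15 ± 0.23 (SE) (adjusted p = 0.669, edgeR), with levels of 16.7 to 32.5 CPM over all 14 samples with the groups overlapping.

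**Figure D3:**
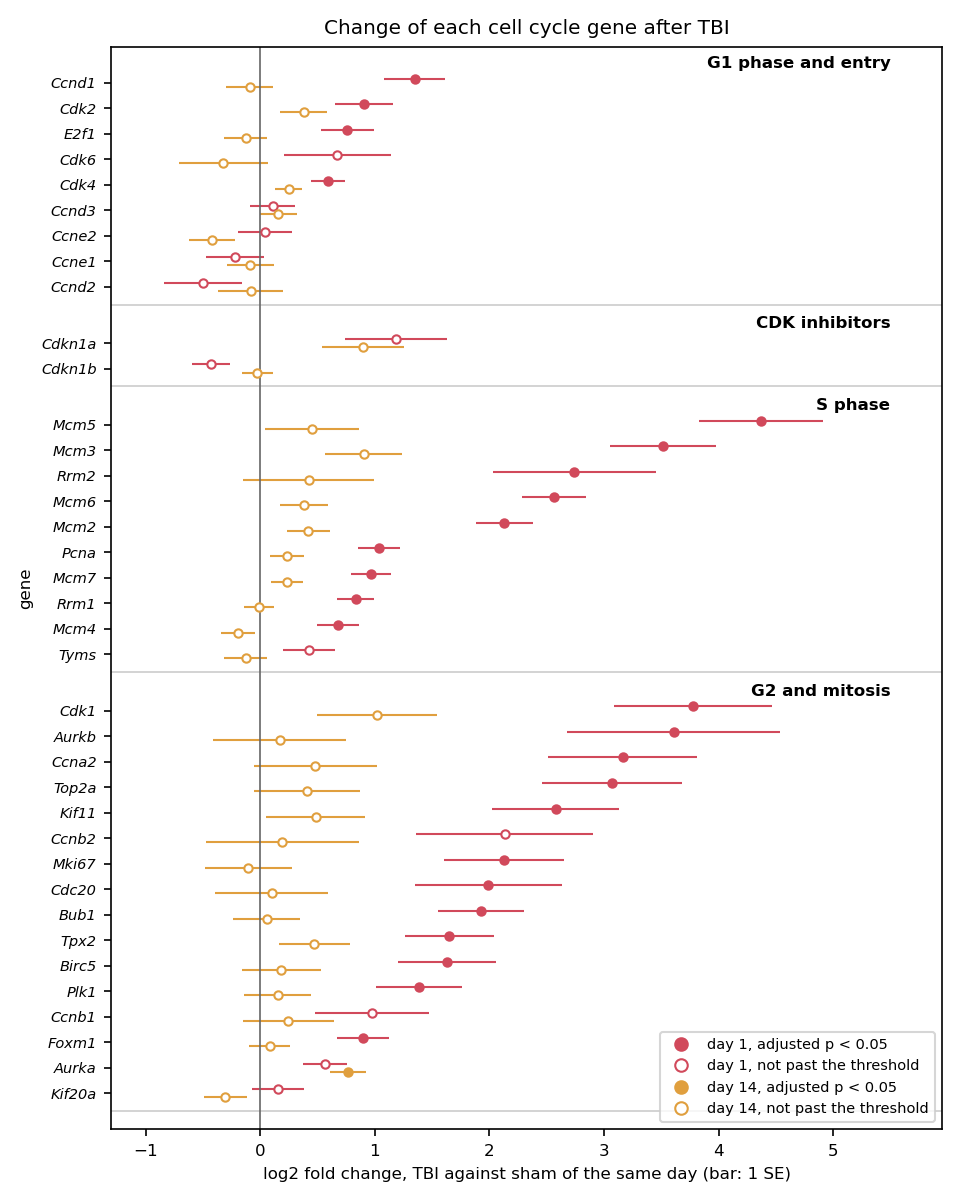
Log2 fold change of each of 37 cell cycle genes in TBI against the sham group of the same day, at day 1 (red) and day 14 (yellow), with bars of 1 SE and filled symbols where the adjusted p is under 0.05. At day 1, 25 symbols are filled, all to the right of 0, and at day 14 only that of Aurka is filled.

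The 4 rats examined 1 day after TBI ranged more widely in the mean level of the mitotic genes than in that of the other classes, a difference that was not tested. Replicate 3 was the highest of the 4 for 14 of 16 mitotic genes and replicate 2 the lowest for 14 of 16. In S phase, replicate 3 was highest for 6 of 10 genes and replicate 2 lowest for 7 of 10. The mean centred log2 CPM of the mitotic class was 0.939, -0.124, 1.79 and 1.28 in replicates 1 to 4, against -0.69 and -0.88 in the sham day 1 samples and between -0.45 and 0.13 in the day 14 samples, so replicate 2 overlapped the day 14 samples. For S phase the same mean was 1.17, 0.746, 1.52 and 1.48 in TBI day 1 and between -0.75 and -0.11 in the other 10 samples. Replicate 2 also had the highest level of Cdkn1a among all 14 samples (63.6 CPM) and the highest of Cdk6 (4.22 CPM).

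Replicate 2 was the deepest of the 4 libraries, with 23159858 counts. Among marker lists, its summed level was the lowest of the 4 for astrocytes (13330 CPM, others 15930 to 19810), oligodendrocyte precursors (419 CPM, others 433.2 to 596.5) and neural progenitors and immature neurons (177 CPM, others 188.9 to 247.3), pericytes and fibroblasts (188.9 CPM, others 204.6 to 271.6) and choroid plexus (8.16 CPM, others 9.08 to 14.5), and the highest for blood-derived myeloid cells (475 CPM, others 244.4 to 452.4). The low astrocyte sum came from Gfap, with 172124 counts in replicate 2 and 229386 to 284829 in the other TBI day 1 samples. Without Gfap, replicate 2 was not the lowest for that list. The part of these marker levels in the mitotic genes was not tested.

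**Figure D4:**
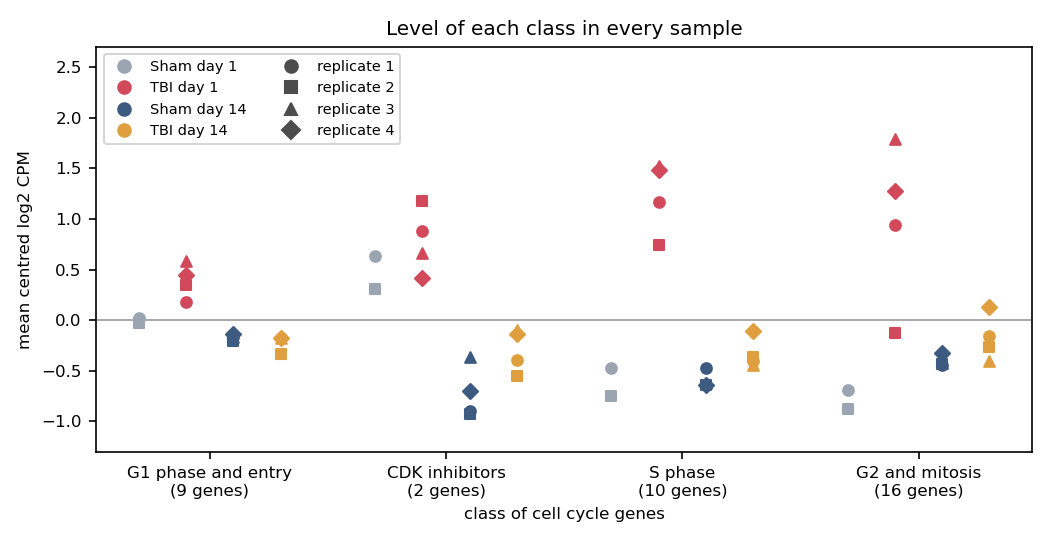
Mean over the genes of a class of log2 CPM minus the mean of each gene over 14 samples, for every sample (colour: group, symbol: replicate number). In S phase the 4 TBI day 1 samples lie above all others, from 0.746 to 1.52, and in G2 and mitosis TBI day 1 replicate 2 lies at -0.124, within the range of the day 14 samples.

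Cell type markers changed along with the cycle genes at day 1, and their part in the results was not tested. Over all tested genes 11.2% rose and 7.93% fell at day 1, the shares to set beside each list. In the list named for blood-derived myeloid cells, 6 of 7 tested markers rose, and Ccr2 was not in the count table. Of the 6, 3 (S100a8, S100a9 and Fcnb) passed the filter on low counts through TBI samples, since 0 of the 6 sham samples reached its level. The list summed to between 244 and 475 CPM in TBI against 29.7 and 52.9 CPM in sham, most of it from Lyz2. Which cells made these transcripts was not tested. Among astrocyte markers 1 of 7 rose, Gfap, the filament protein of reactive astrocytes, at 8.56-fold (adjusted p = 2.02e-05, edgeR). The list summed to between 13330 and 19810 CPM against 6381 and 10220 CPM, and Gfap gave the rise of this sum. Over the 7 markers the median log2 fold change was -0.307, and 3 of 7 were higher by any amount. For microglia, 3 of 9 markers rose and 2 fell, with sums of 774 to 1066 CPM against 460 and 733 CPM. Of the endothelial markers 1 of 7 rose (Pecam1), with sums of 328 to 471 CPM against 205 and 344 CPM. A count of 1 of 7, as for astrocytes and endothelial cells, is near the share of all tested genes.

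Of the markers of neural progenitors and immature neurons 1 of 7 rose, Nes, the filament protein nestin that reactive astrocytes and vessel cells also make, at 11.4-fold (adjusted p = 3.47e-05, edgeR). Of these markers 2 fell, and the list summed to 177 to 247 CPM in TBI and 169 and 229 CPM in sham. Between the sham groups Nes had a log2 fold change of -1.46, lower at day 1 (adjusted p = 0.0144, edgeR). Among oligodendrocyte precursor markers 0 of 6 rose and 1 fell (Gpr17, not called without the 3 samples with choroid plexus transcripts), with sums of 419 to 597 CPM and 504 and 596 CPM. Of 4 tested T cell markers 2 rose (Cd8a and Cd2), both tested through TBI samples because 0 of the 6 sham samples reached the filter level. Cd3e and Lck had log2 fold changes of -0.49 and -0.06 and did not pass the test. The T cell list summed to 6.28 to 17.9 CPM in TBI and 1.84 and 11.2 CPM in sham. Of 6 pericyte and fibroblast markers 0 passed the test in edgeR or had an unadjusted p-value under 0.05, with sums of 189 to 272 CPM and 89.2 and 245 CPM, Col1a2 being at 0 in all samples but 1. Neuron markers fell in 4 of 8 cases, with sums of 2970 to 6483 CPM against 8134 and 10140 CPM, and the choroid plexus list fell in 9 of 9 cases through sham day 1 replicate 1. Without the 3 samples with choroid plexus transcripts, 5 microglial, 3 endothelial and 3 pericyte and fibroblast markers rose, and 1 progenitor marker fell. In that fit 10.8% of all tested genes were higher and 8.48% lower.

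At day 14, Aurka was higher in TBI than in sham, and the other 36 genes did not pass the test. Of 37 genes, 1 rose and 0 fell (edgeR), beside 4.07% and 0.365% of all tested genes, and 4 had an unadjusted p-value under 0.05 (Cdkn1a, Mcm2, Mcm3 and Aurka), all higher, where 13.3% of all tested genes had such a p-value. DESeq2 and limma-voom gave 1 gene higher and 0 lower too. Aurka read 5.90, 6.79, 6.98 and 5.55 CPM in sham and 10.8, 11.5, 9.89 and 10.8 CPM in TBI at day 14. At day 1 its levels were 7.22 and 6.82 CPM in sham and 11.4, 9.74, 12.3 and 8.28 CPM in TBI. The TBI samples lay above the sham samples on both days, by 0.77 ± 0.16 (SE) on the log2 scale at day 14 (adjusted p = 0.00745, edgeR).

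Without the 3 samples with choroid plexus transcripts the adjusted p of Aurka was 0.0542. Fam210b, which overlaps Aurka in the annotation, differed by 0.13 ± 0.17 (SE) on the log2 scale at day 14 (adjusted p = 0.872, edgeR). Every TBI sample lay above all 4 sham samples of day 14 for 6 of the 37 genes (Cdk4, Mcm2, Mcm6, Pcna, Aurka and Tpx2), which held for 9.13% of all tested genes. The median log2 fold change was 0.183 over the 37 genes and -0.031 over all genes. By class it was -0.086 in G1, 0.436 for the inhibitors, 0.31 in S phase and 0.188 in G2 and mitosis.

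Among the microglial markers 8 of 9 rose at day 14, with sums of 1136 to 2000 CPM against 543 to 680 CPM in sham. At that day 4.07% of all tested genes rose and 0.365% fell. Of the astrocyte markers 1 of 7 rose, Gfap, at 4.17-fold (adjusted p = 7.26e-05, edgeR). The median log2 fold change of the 7 was 0.329, and 5 of 7 were higher by any amount.

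The TBI effect itself differed between the days for 7 genes, each with a smaller effect at day 14: Mcm5, Mcm3, Mcm6, Mcm2 and Rrm1 of S phase, Ccnd1 of G1 and Bub1 of mitosis. Over all tested genes 2.24% had a lower and 1.44% a higher effect at day 14. The difference in log2 fold change was -3.92 ± 0.65 (SE) for Mcm5, -2.61 ± 0.55 (SE) for Mcm3, -2.18 ± 0.34 (SE) for Mcm6 and -1.71 ± 0.30 (SE) for Mcm2, with adjusted p-values of 0.00595, 0.0176, 0.00378 and 0.0081 (edgeR). For Bub1 it was -1.87 ± 0.47 (SE), for Ccnd1 -1.44 ± 0.33 (SE) and for Rrm1 -0.84 ± 0.21 (SE), with adjusted p-values of 0.0393, 0.028 and 0.0369 (edgeR). Mcm2 and Mcm6 kept this call under every alternative tried. The call was lost under 14 of 22 alternatives for Rrm1, 13 for Bub1, 7 for Ccnd1, 3 for Mcm3 and 1 for Mcm5.

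For the other 15 mitotic genes the difference did not pass the threshold. It was -3.44 ± 1.08 (SE) for Aurkb, -2.76 ± 0.84 (SE) for Cdk1, -2.68 ± 0.82 (SE) for Ccna2, -2.66 ± 0.74 (SE) for Top2a and -2.23 ± 0.64 (SE) for Mki67, with adjusted p-values from 0.0607 to 0.09 (edgeR). Without TBI day 1 replicate 2, 16 genes were called, and DESeq2 on all samples called 16 too. With limma-voom, 3 were called, and 4 when leaving out sham day 1 replicate 2, sham day 14 replicate 2, sham day 14 replicate 4 or TBI day 14 replicate 3. Without the 3 samples with choroid plexus transcripts 4 were called, and Ccnd1, Rrm1 and Bub1 were not. The share of all genes called in these alternative fits is not given here. A change in calls over all genes therefore cannot be told apart from a change in these genes.

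**Figure D5:**
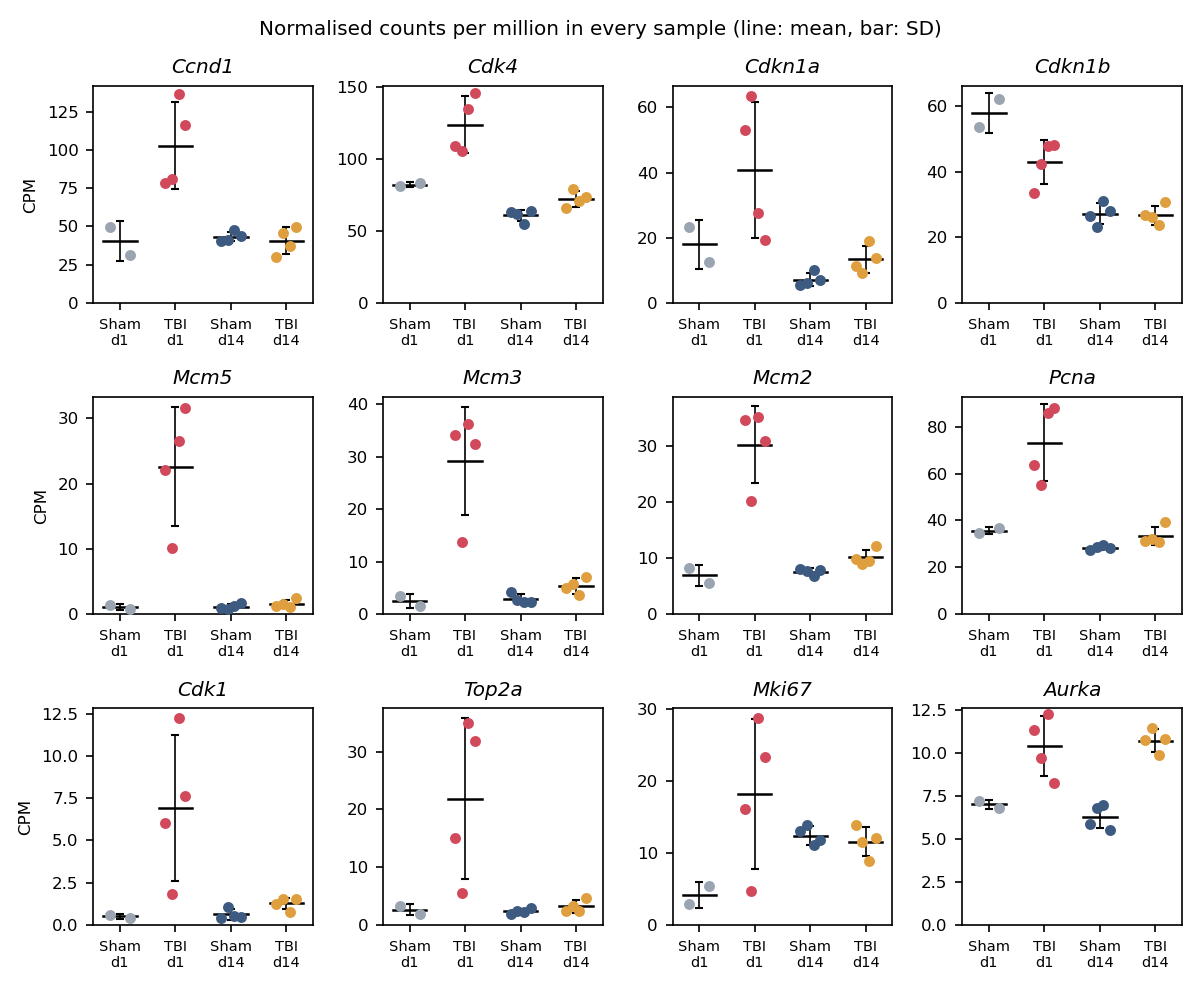
CPM of 12 cell cycle genes in every sample, by group (d1, day 1; d14, day 14), with the mean (line) and SD (bar, n = 2 for sham day 1 and 4 for the other groups). Mcm5, Mcm3, Mcm2, Pcna, Cdk1 and Top2a are high in TBI day 1 alone. Cdk4, Cdkn1a, Cdkn1b and Mki67 also differ between the sham groups, and Aurka has like levels at day 1 and day 14 after TBI.

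The sham groups differed from each other in 5 of the 37 genes, where 11.3% of all tested genes were higher and 7.88% lower in sham day 1. Cdk4, Cdkn1a and Cdkn1b had higher levels 1 day after sham surgery, with log2 fold changes of 0.43 ± 0.14 (SE), 1.32 ± 0.42 (SE) and 1.09 ± 0.16 (SE) (adjusted p = 0.0465, 0.0396 and 0.00171, edgeR). Mki67 and Aurkb were lower, with -1.58 ± 0.51 (SE) and -3.17 ± 0.92 (SE) (adjusted p = 0.0442 and 0.0289, edgeR). No S phase gene differed by edgeR, of which 1 (Tyms) had an unadjusted p-value under 0.05. Leaving out sham day 14 replicate 3 ended the Cdk4 call (adjusted p = 0.0827, edgeR), so the 5 genes called in that fit were not all the same. Without the 3 samples with choroid plexus transcripts, Cdk4, Cdkn1a and Mki67 were not called (adjusted p = 0.129, 0.288 and 0.254, edgeR). With 1 sample left out at a time, 5 genes were called without any TBI day 1 sample or sham day 14 replicate 3, and 1 to 3 without any of the other 9 samples (1 without sham day 1 replicate 2 or sham day 14 replicate 4), and Cdkn1b kept its call under every alternative tried.

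With the sham day 14 samples as the baseline of day 1, 29 genes rose and 0 fell, where 25% of all tested genes were higher and 21% lower. Both inhibitors were among the 29: Cdkn1a was higher by 2.51 on the log2 scale (adjusted p = 8.14e-05, edgeR). In that comparison 10 of 10 S phase, 12 of 16 G2 and mitosis and 5 of 9 G1 genes rose.

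Other genes of the cycle were taken from 4 lists of 116 genes in all, 99 of which were tested. At day 1, 54 rose and 1 fell (edgeR), beside the 11.2% and 7.93% of all tested genes. Of the replication genes, 19 of 31 rose and 0 fell, with a median log2 fold change of 0.825, led by Mcm10, a replisome factor (9.55-fold), Cdt1, which loads the helicase (9.11-fold), and Cdc6, its partner in loading (5.99-fold). Of the mitotic genes, 26 of 37 rose and 0 fell, with a median of 2.15, led by the kinase gene Melk (18.4-fold), Cdca3 (10.3-fold) and securin, Pttg1 (9.31-fold). Their adjusted p-values by edgeR were 0.000755, 6.79e-05, 0.00557, 0.00616, 0.0117 and 0.0114. In the mitotic list Melk, Cks2 and Cenpa passed the filter on low counts through TBI samples, with 0 of the 6 sham samples at its level. The same held for Cdca2 and Ube2c, both called higher, with 1 of the 6 sham samples at that level. Without the 3 samples with choroid plexus transcripts, 15 of 31 replication genes and 14 of 38 mitotic genes rose, and Cdca3 and Pttg1 were not called.

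Melk read 0.377 and 0 CPM in sham and 2.75, 0.771, 6.24 and 3.90 CPM in TBI at day 1, and Cdca3 0.215 and 0.323 CPM and 1.92, 0.609, 5.82 and 3.09 CPM, with replicate 3 the highest and replicate 2 the lowest TBI sample in both. Cdt1 read 1.78 and 1.34 CPM in sham and 11.5, 10.2, 16.4 and 18.7 CPM in TBI, without overlap.

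Of the G1 and E2F regulators, 4 of 13 rose at day 1 and 0 fell, led by Myc (4.20-fold, adjusted p = 3.28e-05, edgeR), the repressor gene E2f7 (4.01-fold, adjusted p = 0.00831, edgeR) and Rbl1, which encodes the pocket protein p107 (3.36-fold, adjusted p = 0.00213, edgeR). Of the further inhibitors and growth arrest genes, 5 of 18 rose and 1 fell, again beside 11.2% and 7.93% of all tested genes. The stress genes Gadd45a and Gadd45g rose by 4.88-fold and 4.66-fold (adjusted p = 4.62e-05 and 0.00015, edgeR), Aen, a nuclease gene, rose by 2.09-fold (adjusted p = 0.00292, edgeR), and Zmat3 fell by 0.63 on the log2 scale (adjusted p = 0.0469, edgeR).

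Myc read 10.5 and 13.4 CPM in sham and 39.7, 68.0, 51.4 and 41.8 CPM in TBI at day 1, and 8.72, 7.87, 8.33 and 7.62 CPM in sham and 12.4, 10.8, 13.7 and 14.7 CPM in TBI at day 14. Replicate 2, low in mitotic genes, had the highest Myc level of all. At day 14, 4 of the 99 genes rose and 0 fell, beside 4.07% and 0.365% of all tested genes, and 13 had an unadjusted p-value under 0.05, beside 13.3%. Both shares were near those of all genes. The 4 held Myc (1.59-fold, adjusted p = 0.0408), Gadd45a (2.02-fold, 0.0065) and Gadd45g (1.81-fold, 0.0413), by edgeR, of which Gadd45a alone was called without the 3 samples with choroid plexus transcripts. The replication and mitotic lists had 0 calls at day 14 in edgeR, with 2 of 31 and 4 of 37 genes at an unadjusted p-value under 0.05.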

How the data were processed

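RNA from the ipsilateral hippocampus of 14 rats (2 sham and 4 TBI at day 1, 4 sham and 4 TBI at day 14) was sequenced by the authors as stranded single-end libraries. The deposited values are raw counts per gene, which the authors made with STAR 2.4.2a on the rn5 genome and featureCounts 1.5.0, after FastQC 0.11.8. Total counts per sample were 15065540 to 23743703. Replicates differed by 12.6 times sampling noise or more (chi-square per degree of freedom), so each counted as 1 sample. The H3K4me3 peak files of the series were not used here, since no rn5 annotation was at hand.

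Genes with enough counts by edgeR's default filter (12875 of 17172) were fitted with TMM factors and 1 mean per group over all 14 samples. The quasi-likelihood test of edgeR 4.0.16 (R 4.3.3) was two-sided, and p-values were adjusted over all tested genes by the Benjamini-Hochberg method, with 0.05 as the threshold. Levels are CPM on TMM-scaled library sizes, and the SE is the log2 fold change over the square root of F. Class levels are means of log2 CPM with a prior count of 2, centred per gene. TBI was set against sham within each day, the 2 effects against each other, and the sham groups against each other. The p-values measure the spread between rats.

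Values in every sample are given for up to 4 called genes of each class and comparison with the largest change and for Mki67, Cdk1, Ccnd1, Cdkn1a, Cdkn1b, Pcna and Mcm2, and up to 3 called genes of each direction and day are named per further list. Values in every sample of Ccnb1, Ccnb2, Melk, Cdca3, Cdt1 and Myc were added after they were seen. Some genes of the lists are counted but not reported here by name. The members and all lists were chosen with earlier results of these data known. Alternatives were limma-voom (limma 3.58.1), DESeq2 1.42.0, median-of-ratios factors, no filter, at least 10 counts in every sample, an adjusted p under 0.01, other sham baselines, only the groups compared, a replicate block, and leaving out each sample. Leaving out the 3 samples with choroid plexus transcripts was added after seeing the data. The fits were tested on simulated counts with 200 changed genes. Promoter windows are from RefSeq (GRCr8), and figures and motif searches used Python 3.11.15, pandas 2.3.3 and matplotlib 3.10.9.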

Additional observations from a re-analysis of the deposited data

Results flagged for a closer look

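In 3 of 111 sets of values, each a gene in a group of 4 rats, a sample stood far from the others by Dixon's test, which chance gives in about 1 of 20 sets. The level of Mcm3 in TBI day 1 replicate 2 was 13.8 CPM, below the other TBI samples of that day and above the samples of the other groups. Ccnd3, a D-type cyclin gene, read 39.73 CPM in sham day 14 replicate 4, and Tyms read 4.819 CPM in TBI day 14 replicate 3, a sample with choroid plexus transcripts.

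For 7 genes the TBI effect differed between the days by a test of the difference itself (edgeR). At day 14 the effect on the log2 scale was lower than at day 1 by these differences: -1.44 for Ccnd1, -1.709 for Mcm2, -2.612 for Mcm3, -3.919 for Mcm5, -2.176 for Mcm6, -0.842 for Rrm1 and -1.87 for Bub1.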

How the results depend on the processing

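Of 37 genes, 25 were higher at day 1. The count was 10 with only the groups compared, 14 at an adjusted p under 0.01, 17 without the 3 samples with choroid plexus transcripts, 20 with limma-voom, 28 with DESeq2, and 13 to 26 with single samples left out (13 without sham day 1 replicate 2). For genes higher at day 14 (1), it was 3 with only the groups compared and 0 without the choroid plexus samples. For effects that differed between days (7), the count was 3 with limma-voom and at an adjusted p under 0.01, 16 with DESeq2, 4 without the choroid plexus samples, and 4 to 16 with single samples left out. For sham groups (5), it was 1 with limma-voom and at an adjusted p under 0.01, 3 with at least 10 counts in every sample and without the choroid plexus samples, and 1 to 5 with single samples left out. Outside the day 1 fit without the choroid plexus samples, the share of all genes called in these fits is not given here. Cdkn1b at day 1 turned from -0.43 to 0.658 on the log2 scale against sham day 14 and to 0.201 against all 6 sham samples; the cause was not tested.

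Same-numbered samples correlated between -0.348 and 0.243 in 18 pairs, of which 5 were above 0.1, so the numbers were not taken as pairs. With a replicate block, 21 genes were higher and 1 (Cdkn1b) lower at day 1, and 4 effects differed between days. With 2 sham rats at day 1, the day 1 calls rest on few controls, and levels under about 1 CPM rest on few reads.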
